A study of Homo sapiens with 8 samples.

Results

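The genes described here encode the protein subunits of the mitochondrial ribosome whose symbols begin with MRPL or MRPS followed by a number, with pseudogenes left out. The reference table lists 77 such genes, and all 77 were found among the 20499 genes named on the array through the RefSeq accessions of their probes. All of them also entered the tests, which covered 15547 genes, and the probe used for each was well above background on all 8 arrays. By subunit, 51 belong to the large and 26 to the small subunit, where MRPS18A and MRPS30 are counted with the large subunit in spite of their names. A bacterial ribosome has a counterpart of 46 of these proteins, and the remaining 31 are counted as having none of their own, MRPS18A and MRPS18B among them, whose bacterial relative is given to MRPS18C.

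The mitochondrial ribosome translates the few mRNAs that mitochondria transcribe from their own DNA, all of which encode subunits of the respiratory chain and of ATP synthase. Its ribosomal RNAs come from the mitochondrial genome, whereas all of its proteins are encoded in the nucleus, made in the cytosol and imported. Large subunit proteins surround the site of peptide bond formation and the exit tunnel, and small subunit proteins surround the decoding site.

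Total RNA came from MDAH (MDAH-2774) and SKOV3 cells, both lines of epithelial ovarian cancer (EOC), and was hybridized to 8 single-colour Agilent arrays. Each line had 2 control arrays, not silenced for SFPQ, and 2 arrays of cells in which SFPQ, a splicing factor of the paraspeckle, was silenced, 1 with sh-SFPQ#2 and 1 with sh-SFPQ#3, so that the 2 silenced arrays of a line held different shRNAs. No group received platinum according to the labels, and it is unsettled between the sources if both control arrays held cells with the control shRNA or 1 of them held parental cells. The labels do not say whether arrays of a group came from separate cultures, so p-values measure the spread between these arrays, which may be technical. In the silenced groups that spread also holds the difference between the shRNAs. Values are log2 signals relative to the 75th percentile of the same array, each for the brightest probe of a gene. They compare arrays for 1 probe and give no order of level between genes.

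SFPQ itself was lower by 1.50 on the log2 scale in silenced MDAH cells (limma adjusted p = 0.0328) and by 2.01 in silenced SKOV3 cells (adjusted p = 0.0299). The change of SFPQ stayed between -1.68 and -1.33 in MDAH and between -2.27 and -1.74 in SKOV3 cells when 1 array was left out, but the call was then lost without either control array of either line, and in MDAH cells also without sh-SFPQ#3 (limma adjusted p up to 0.200 and 0.115). It was also lost with no filter on dim probes and with the 4 arrays of a line alone, and in MDAH cells with array median centring (adjusted p from 0.0510 to 0.107). KRT8, KRT18, KRT19, EPCAM and the ovarian marker PAX8 were well above background on all 8 arrays, CDH1 on 6, WT1 on 4 and MUC16 on 2. Of 11 markers of fibroblasts, leukocytes and endothelium, COL1A1, PTPRC, CD68 and CDH5 were well above background on all 8 arrays, and PDGFRB and CD3E on none. In the average COL1A1 rose by 1.18 (limma adjusted p = 0.0296), and DCN, at 1.20, did not pass (0.0664). MUC16 rose by 1.20 (limma adjusted p = 0.0395), but with 2 arrays well above background it entered the tests through 1 group alone. Its log2 signals were -2.80 and -2.43 in silenced SKOV3 cells, -4.15 and -4.89 in SKOV3 controls and -7.15 to -6.10 in MDAH cells. No result is drawn from its call. The change of PAX8 was -0.60 in MDAH and 0.50 in SKOV3 cells, neither of which passed (0.0835 and 0.131). The part of these markers in the results was not tested. The 75th percentile of the signal ranged from 387 to 496 on 7 arrays and was 244 on the array of MDAH cells with sh-SFPQ#3. Each line took its own row of the single slide with controls before silenced samples, so position and group cannot be told apart. In bulk RNA, fewer cells of a kind and less RNA per cell cannot be told apart either.

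**Figure D1:**
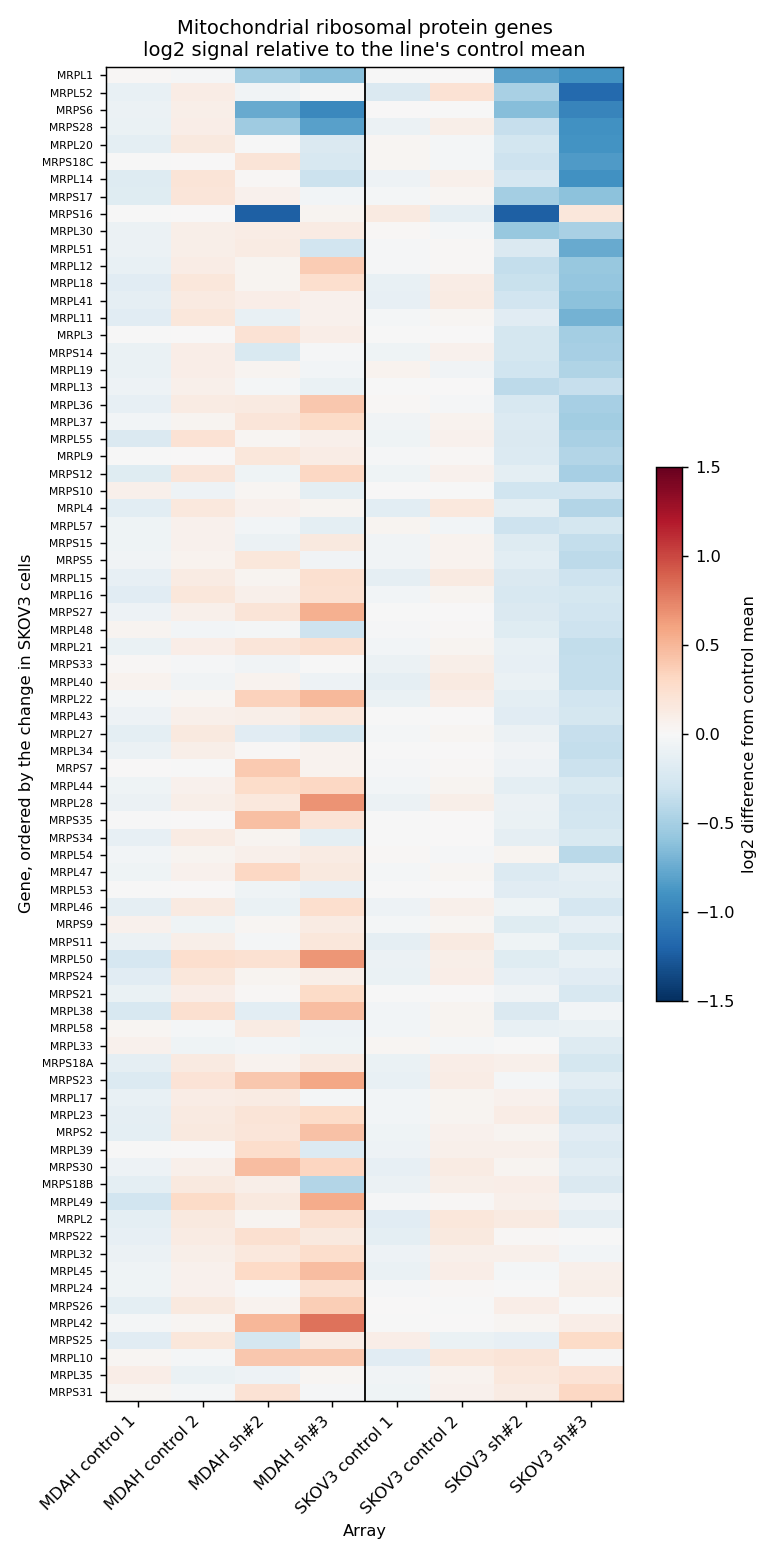
Log2 signal of each of the 77 mitochondrial ribosomal protein genes (rows) on each of the 8 arrays (columns), as the difference from the mean of the 2 control arrays of the same line, with blue for lower and red for higher. Rows are ordered by the change in SKOV3 cells, 67 of them below 0 there, while MRPS6, MRPL1 and MRPS28 are blue on the silenced arrays of both lines and MRPS16 only on those of sh-SFPQ#2.

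Both silenced arrays lay below both controls in both lines for 5 of the 77 genes (MRPL1, MRPL27, MRPL53, MRPS28 and MRPS6), which is 6.49%, against 10.3% of all genes. Averaged over the lines, MRPL1 and MRPS6 fell, the only 2 of the 77 genes called, by 0.71 and 0.84 on the log2 scale. Of all genes tested, 3.64% were called lower in this comparison, so the share among the ribosomal proteins was not above that of all genes. MRPS28 was the next lowest and did not pass.

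MRPL1 encodes the protein of the L1 stalk, the mobile arm of the large subunit where deacylated tRNA leaves. MDAH controls had log2 signals of -1.54 and -1.56, which compare with -2.07 under sh-SFPQ#2 and -2.18 under sh-SFPQ#3. SKOV3 controls had -0.15 and -0.14, which compare with -0.96 and -1.04 for the shRNAs in the same order. The 4 silenced arrays lay below both controls of their line, with little spread inside any group. On each of the 8 arrays this was the lowest signal of the 77 genes. The change was -0.57 ± 0.14 (SE, 2 arrays against 2) in MDAH cells, with a limma adjusted p of 0.0878, and -0.86 ± 0.14 in SKOV3 cells, a 1.81-fold lower signal with an adjusted p of 0.0489. Averaged over both lines it was -0.71 ± 0.096 (adjusted p = 0.0171). The call in SKOV3 cells was lost whenever any 1 of the 8 arrays was left out (adjusted p from 0.0505 to 0.171) and with quantile normalization (0.0537), the deposited log2 table (0.0537), array median centring (0.0803), no filter on dim probes (0.0922) or a fit to the 4 SKOV3 arrays alone (0.123).

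MRPS6, a protein of the platform of the small subunit, had log2 signals of 4.68 and 4.86 in control MDAH cells, 4.01 under sh-SFPQ#2 and 3.80 under sh-SFPQ#3. Both SKOV3 control arrays were at 6.40, against 5.77 under sh-SFPQ#2 and 5.40 under sh-SFPQ#3. The groups of a line did not overlap, and the sh-SFPQ#3 array was the lower of the silenced arrays in each line. The change was -0.86 ± 0.18 in MDAH cells (adjusted p = 0.0701) and -0.81 ± 0.18 in SKOV3 cells (adjusted p = 0.0939), neither of which passed (in MDAH cells it was called with normexp, at 0.0232, and with the replicate block, at 0.0447), and -0.84 ± 0.13 averaged over both lines (adjusted p = 0.0220), a 1.79-fold lower signal. In the average, MRPL1 and MRPS6 were both lost when either control array of either line was left out, and MRPS6 also without MDAH sh-SFPQ#3.

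MRPS28 is the mitochondrial relative of bacterial protein S1. It had signals of 3.72 and 3.92 in control MDAH cells, against 3.29 and 3.01 under sh-SFPQ#2 and sh-SFPQ#3. SKOV3 controls read 4.16 and 4.34, against 3.90 and 3.34 under the shRNAs. The silenced arrays were again below both controls in each line, though the 2 shRNAs differed more than for MRPL1. Its average change of -0.65 ± 0.16 had an adjusted p of 0.0655, and it was called with normexp background correction (0.0232), where only genes well above background on all 8 arrays were tested (0.0446), with the replicate block (0.0290), which takes the control number and the shRNA number as shared by the lines, and without SKOV3 sh-SFPQ#2 (0.0308). In the other direction, 1 of the 77 genes (MRPL42, 1.3%) had its silenced arrays above both controls in both lines, against 12.4% of all genes.

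**Figure D2:**
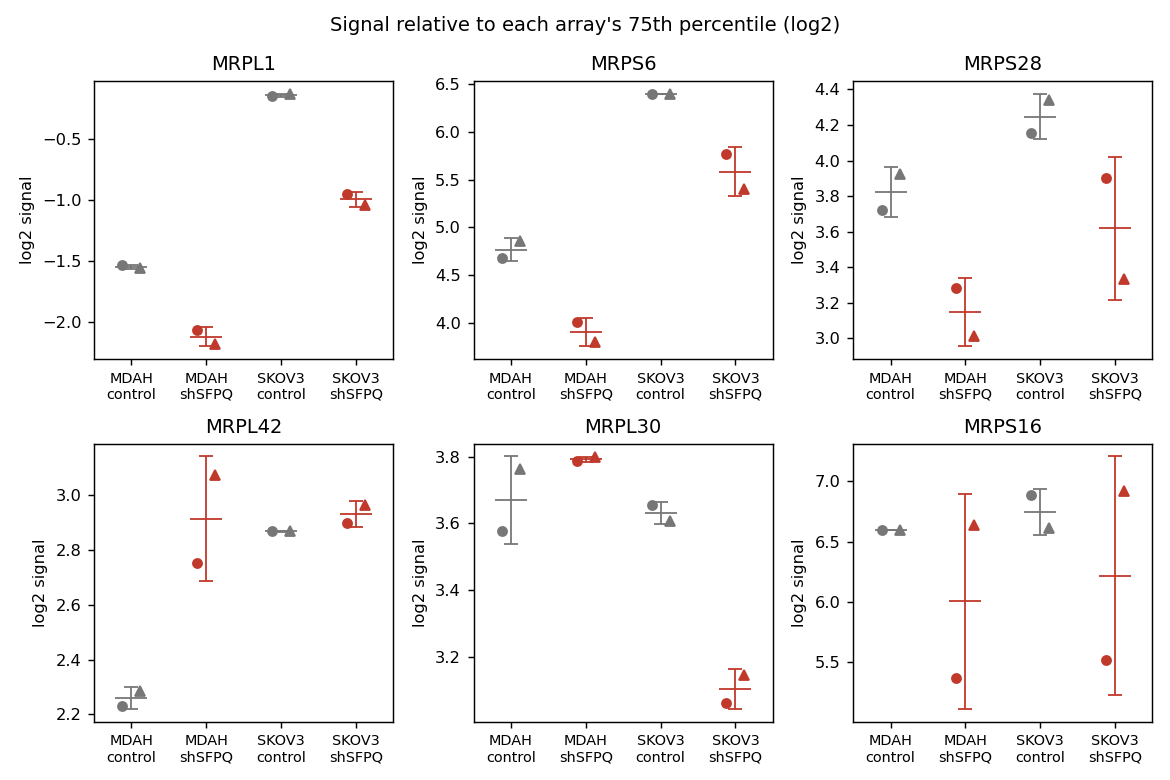
Log2 signals, scaled to each array's 75th percentile, for 6 mitochondrial ribosomal protein genes in the 4 groups of 2 arrays, on an axis of its own for each gene. In the silenced groups circles are sh-SFPQ#2 and triangles sh-SFPQ#3, in the control groups they are controls 1 and 2, the horizontal line is the mean and the bars are ± 1 SD, and MRPL1 has its silenced arrays at -2.07, -2.18, -0.96 and -1.04, each below both controls of its line.

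The promoters of MRPL1 and MRPS6 are shown because these are the genes that passed in the average, and that of MRPL42 because it had the highest change in MDAH cells. Each run covers 250 bases before the RefSeq start and 30 after it on GRCh38.p14, 5′ to 3′ on the strand of the gene, which is the plus strand for all of them, at chr4:77862580-77862859 for MRPL1, chr21:34073328-34073607 for MRPS6 and chr12:93467264-93467543 for MRPL42. Capitals mark the motifs searched.
MRPL1: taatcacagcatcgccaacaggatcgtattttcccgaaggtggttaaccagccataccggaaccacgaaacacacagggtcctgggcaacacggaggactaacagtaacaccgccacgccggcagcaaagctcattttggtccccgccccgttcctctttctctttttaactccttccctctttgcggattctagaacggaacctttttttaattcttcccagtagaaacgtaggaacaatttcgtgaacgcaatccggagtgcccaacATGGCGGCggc
MRPS6: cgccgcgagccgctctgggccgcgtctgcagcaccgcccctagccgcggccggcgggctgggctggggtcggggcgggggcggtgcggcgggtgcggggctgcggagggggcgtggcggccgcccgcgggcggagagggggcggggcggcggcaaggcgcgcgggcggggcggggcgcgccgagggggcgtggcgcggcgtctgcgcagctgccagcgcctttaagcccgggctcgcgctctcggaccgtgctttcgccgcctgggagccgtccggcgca
MRPL42: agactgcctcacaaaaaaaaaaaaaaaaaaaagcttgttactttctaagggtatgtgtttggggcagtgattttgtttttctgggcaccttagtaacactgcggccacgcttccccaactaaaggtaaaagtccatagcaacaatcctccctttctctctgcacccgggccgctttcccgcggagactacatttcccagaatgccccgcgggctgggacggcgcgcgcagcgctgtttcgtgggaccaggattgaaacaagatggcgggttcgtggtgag

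The motifs were the ETS core CCGGAAG, bound by the GABP factor, the NRF1 core GCATGCGC, the YY1 core ATGGCGGC and the CCAAT box, each on either strand. In these windows only the YY1 core was found, at base 20 after the start of MRPL1, and a window without a match says only that these letters were not in it. RefSeq promoters from 250 bases before to 50 after the start were at hand for 69 of the 77 genes. The ETS core was in 29 of them (42.0%), against 14.2% of all 15843 promoters of protein-coding genes in the table, and the YY1 core in 19 (27.5%), against 4.49%. The NRF1 core was in 6 (8.70%), against 4.26% of all promoters, and the CCAAT box in 20 (29.0%), against 36.4%. In SKOV3 cells the median log2 change was -0.22 in the 29 genes with the ETS core and -0.21 in the 40 without it, and -0.17 in the 19 with the YY1 core and -0.22 in the 50 without it. Of the factors themselves, NRF1 changed by -0.30 in MDAH and -0.46 in SKOV3 cells, GABPA by 0.26 and 0.12 and YY1 by 0.15 and -0.21 on the log2 scale, none of which passed.

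In SKOV3 cells the set as a whole was shifted down by a small amount. Cytosolic ribosomal proteins and respiratory chain subunits, described below, had similar medians there, at -0.22 and -0.24. The median signal of the set was 4.04 to 4.49 on the 8 arrays, against 0.73 to 0.80 for all genes tested. The part of signal level in the shift was not tested. The log2 change of the set was below 0 for 67 of the 77 genes and above it for 10. Its median was -0.22, whereas the median of all genes tested was -0.04, with 54.0% of them below 0. Both silenced arrays lay below both controls for 50 of the 77 genes, against 32.1% of all genes, and above both for 3 (MRPL35, MRPL42 and MRPS31), against 25.9%. MRPL1 was the 1 gene called, where 0.572% of all genes were called lower. At an unadjusted p under 0.05, 13 were lower and 0 higher, against 9.62% and 9.89% of all genes. The median stayed below that of all genes in each of the 4 pairings of a silenced with a control array, by 0.080 to 0.27, and it was negative with each single silenced array, at -0.15 with sh-SFPQ#2 and -0.28 with sh-SFPQ#3 against the mean of the controls.

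The genes that changed most in SKOV3 cells after MRPL1 were MRPL52, MRPS6 and MRPS28. MRPL52, a large subunit protein without a bacterial counterpart, had signals of 4.29 and 4.73 in control SKOV3 cells, 4.03 under sh-SFPQ#2 and 3.35 under sh-SFPQ#3. Its change of -0.82 ± 0.26 did not pass (adjusted p = 0.171), and its controls differed by 0.44, the largest gap between the SKOV3 controls in the set. At the other end, MRPS31 had a change of 0.21 ± 0.16 and MRPL35 of 0.18 ± 0.15, followed by MRPL10 and MRPS25 at 0.08 each, with adjusted p-values from 0.489 to 0.859. Genes with a bacterial counterpart had a median of -0.27, with 42 of 46 below 0, and genes without one had -0.16, with 25 of 31 below 0. The median was -0.22 in the large subunit (45 of 51 below 0) and -0.19 in the small subunit (22 of 26 below 0), and the difference between subunits was not tested.

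In MDAH cells the median of the set lay close to that of all genes. The change was above 0 for 52 genes and below 0 for 25, with a median of 0.08 beside 0.10 over all genes. None of the 77 was called, where 2.03% of all genes were. At an unadjusted p under 0.05, 4 were higher (MRPL22, MRPL42, MRPL45 and MRPS23) and 3 lower (MRPL1, MRPS6 and MRPS28), against 13.1% and 9.98% of all genes. Both silenced arrays lay above both controls for 24 genes, against 35.6% of all genes, and below both for 5 (MRPL1, MRPL27, MRPL53, MRPS28 and MRPS6), against 21.4%. This direction turned with the scaling: the median was -0.03 with quantile normalization, with the deposited log2 table and with normexp, and 28, 28 and 30 of the 77 genes were then above 0.

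MRPL42, a protein of the large subunit that bacteria lack, had the highest change in MDAH cells. Its signal was 2.23 and 2.29 without silencing, 2.75 under sh-SFPQ#2 and 3.07 under sh-SFPQ#3, which is 0.65 ± 0.16 higher with an adjusted p of 0.0906. SKOV3 controls were both at 2.87 and the silenced arrays at 2.90 and 2.96, a difference of 0.06 ± 0.16. Both silenced arrays were thus above both controls in each line, by much more in MDAH cells, and the call was made only in the fit without MDAH sh-SFPQ#2. MRPS23, MRPL50 and MRPL22, the last of which lines the exit tunnel, followed with changes of 0.50 ± 0.19, 0.45 ± 0.23 and 0.41 ± 0.15 (adjusted p from 0.176 to 0.287). The MDAH controls were not alike for this set, since control 2 exceeded control 1 for 65 of the 77 genes, by a median of 0.18, whereas the median over all genes was 0.04. Without control 1 the median change in MDAH cells was 0.01, and without control 2 it was 0.18.

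**Figure D3:**
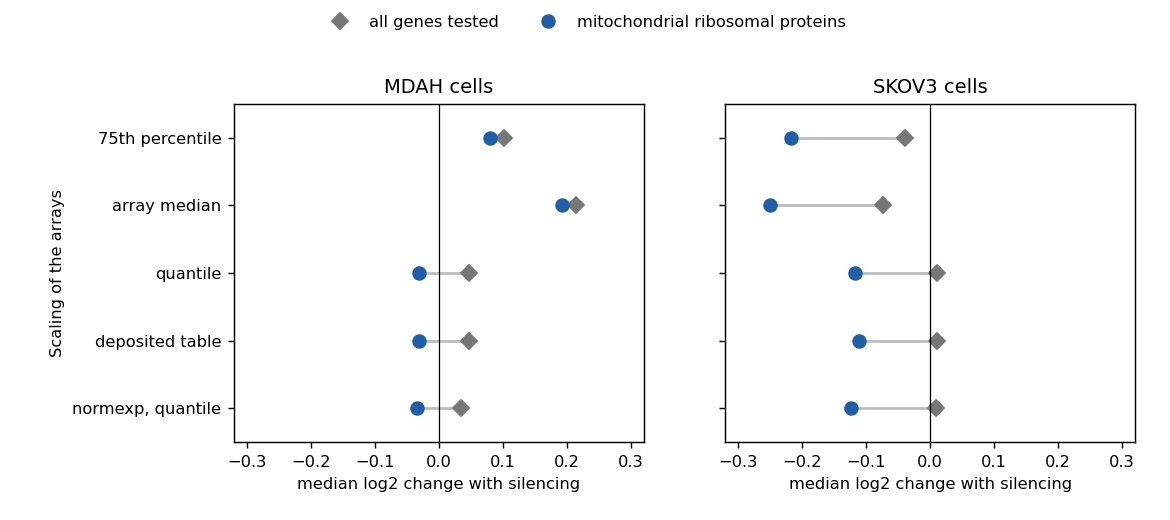
Median log2 change with SFPQ silencing over the 77 mitochondrial ribosomal protein genes (blue circles) and over all genes tested (grey diamonds) under 5 scalings of the arrays, in MDAH cells on the left and SKOV3 cells on the right. In SKOV3 cells the circles lie between -0.25 and -0.11, each left of its diamond, and in MDAH cells they lie on both sides of 0, from -0.03 to 0.19.

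Array median centring raised the median of all genes in MDAH cells by 0.11, from 0.10 to 0.21, so that the set is given relative to that median. Relative to all genes, the set was lower by 0.02 in MDAH cells in the main scaling and by 0.02 to 0.08 in the others. In SKOV3 cells it was lower by 0.18, and by 0.12 to 0.18 in the others, with 58 to 70 of the 77 genes below 0.

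**Figure D4:**
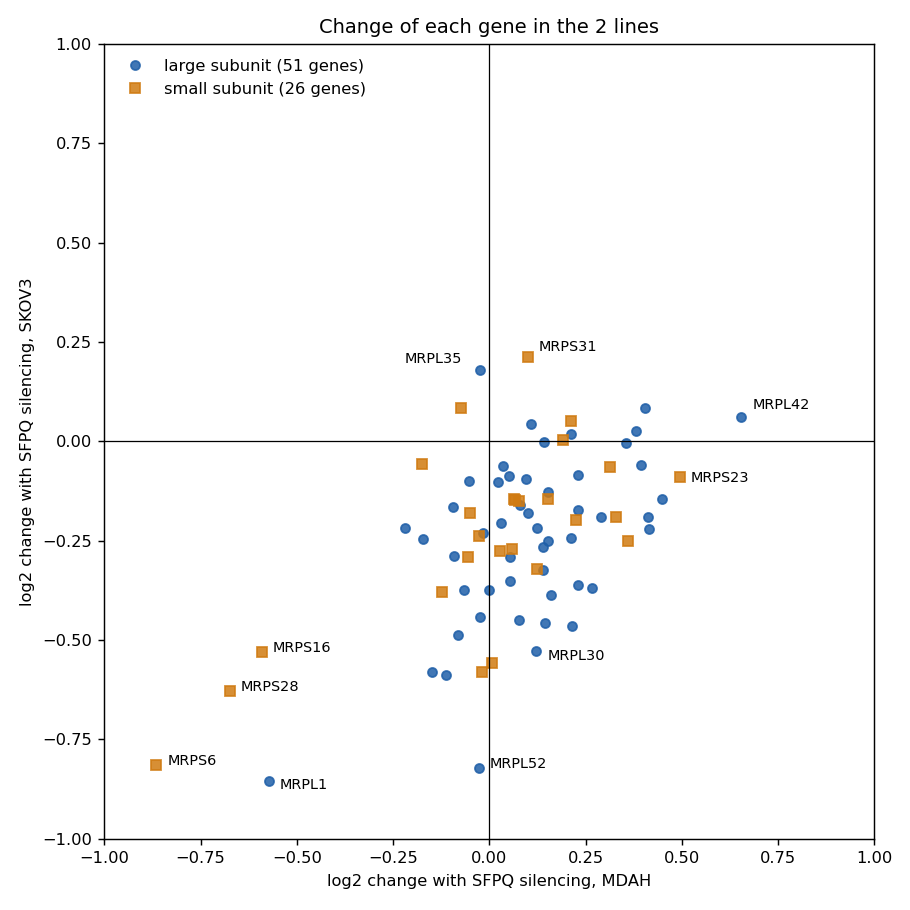
Log2 change with SFPQ silencing of each of the 77 genes in MDAH cells (horizontal) and SKOV3 cells (vertical), with circles for the 51 large subunit and squares for the 26 small subunit genes. Most points (44) are in the lower right quadrant, and MRPS6, MRPL1, MRPS28 and MRPS16 stand apart at the lower left.

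Between the lines, 44 genes were higher in silenced MDAH and lower in silenced SKOV3 cells, 23 were lower in both, 8 higher in both and 2 lower in MDAH and higher in SKOV3 cells. The 44 are 57.1% of the set, whereas 28.0% of all genes had these signs. Counted by arrays that did not overlap, 14 genes were above both controls in MDAH and below both in SKOV3 cells, against 8.38% of all genes. The change in MDAH minus that in SKOV3 cells was above 0 for 69 of the 77 genes, with a median of 0.32 beside 0.12 over all genes. No gene of the set was called for this difference, where 0.0965% of all genes were. At an unadjusted p under 0.05, 10 were higher and 0 lower, against 8.23% and 6.70% of all genes. The size depended on the scaling, with a median of 0.09 under quantile normalization and 0.47 under array median centring, where that of all genes was 0.26.

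MRPL30, a large subunit protein with a bacterial counterpart, shows the pattern in single arrays. MDAH arrays read 3.58 and 3.76 without and 3.79 and 3.80 with silencing, whereas SKOV3 arrays read 3.65 and 3.61 without and 3.06 and 3.15 with silencing. The silenced arrays were above both controls in one line and below both in the other. The difference of its changes was 0.65 ± 0.20 (adjusted p = 0.264). MRPL52 had a difference of 0.80 ± 0.37, MRPL12, the protein of the flexible stalk that recruits translation factors, of 0.68 ± 0.25, and MRPL36 of 0.63 ± 0.25, with adjusted p-values from 0.310 to 0.361. The lowest values were those of MRPL35 (-0.20 ± 0.21), MRPS25 (-0.16 ± 0.32), MRPS18B (-0.12 ± 0.33) and MRPS31 (-0.11 ± 0.23), none of them larger than its SE.

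MRPS16, a small subunit protein with a bacterial counterpart, was the gene in which the shRNAs differed most. Its brightest probe read 6.60 on both control arrays of MDAH, 5.37 under sh-SFPQ#2 and 6.64 under sh-SFPQ#3. On the SKOV3 arrays it read 6.88 and 6.61 without silencing, 5.52 under sh-SFPQ#2 and 6.92 under sh-SFPQ#3. The signal was thus low with sh-SFPQ#2 and at or above the controls with sh-SFPQ#3 in both lines, by 1.26 and 1.40 between the shRNAs. A dimmer probe of the same transcript did not show this: it read 2.42 and 2.24 without and 2.69 and 2.82 with silencing in MDAH, and 2.71 and 2.56 without and 2.67 and 2.80 with silencing in SKOV3. The change was -0.59 ± 0.54 and -0.53 ± 0.54 by the brightest probe and 0.42 and 0.10 by the other, so no direction is given for MRPS16.

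For 14 of the 77 genes 2 probes were present, and their changes had the same sign for 10 in each line, with a median gap of 0.065 in MDAH and 0.13 in SKOV3 cells. MRPL43 was the other gene with probes of clearly opposite sign, at -0.22 in SKOV3 cells by the brightest probe and 0.79 by a probe of another transcript variant. That other probe was dim, with a mean log2 signal of -2.96 against 3.22 for the brightest. The probes of MRPL19 stood at -0.37 and 0.06 in SKOV3 cells. Those of MRPL52 stood at -0.82 and -0.55, which is the same direction.

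The paralogs MRPS18A, MRPS18B and MRPS18C are all related to bacterial protein S18 and take different places in the ribosome. In SKOV3 cells MRPS18C changed by -0.58 ± 0.23, MRPS18A by -0.10 ± 0.18 and MRPS18B by -0.06 ± 0.23, with adjusted p-values of 0.236, 0.797 and 0.910. In MDAH cells they changed by -0.02 ± 0.23, 0.10 ± 0.18 and -0.18 ± 0.23. MRPS18C was at 5.36 and 5.31 in the SKOV3 controls and at 5.02 and 4.49 with silencing, the only paralog whose SKOV3 groups did not overlap. The difference between paralogs was not tested.

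Other genes of mitochondrial translation were set beside these proteins. The 5 mitoribosomal proteins without an MRPL or MRPS symbol on the list used, which are DAP3, PTCD3, CHCHD1, AURKAIP1 and GADD45GIP1, were all below 0 in SKOV3 cells, from -0.32 to -0.10, with a median of 0.03 in MDAH cells. The 14 factors of translation initiation, elongation, release and mRNA handling had a median of 0.17 in MDAH (11 above 0) and -0.21 in SKOV3 cells (12 below 0), and the 29 assembly factors 0.28 (23 above 0) and 0.01 (14 below 0). The 20 mitochondrial tRNA synthetases and related enzymes had 0.15 and -0.004. None of these 68 genes was called by limma in either line, where 2.03% of all genes were in MDAH and 0.997% in SKOV3 cells. An unadjusted p under 0.05 was reached by 13 in MDAH cells and 4 in SKOV3 cells, where 23.1% and 19.5% of all genes did. Under the other scalings the assembly factors and the synthetases took either sign in SKOV3 cells, from -0.02 to 0.07 and from -0.04 to 0.03, and the 5 proteins first named turned to -0.11 in MDAH cells at the lowest, whereas the translation factors kept their signs. In the average, where 5.66% of all genes were called, FARS2, which charges mitochondrial phenylalanine tRNA, was the only one of the 68. It fell by 0.90 on the log2 scale (adjusted p = 0.0339), from 0.70 and 0.89 in the MDAH controls to -0.17 and 0.09, and from 0.48 and 0.77 in the SKOV3 controls to -0.06 and -0.62. The call was lost with no filter on dim probes (0.0620) and when either control array of either line, MDAH sh-SFPQ#3 or SKOV3 sh-SFPQ#3 was left out (limma adjusted p from 0.0602 to 0.132).

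The proteins of the cytosolic ribosome and the nuclear subunits of the respiratory chain were compared in the same way. Of the 86 cytosolic ribosomal proteins, 84 were above 0 in MDAH cells (median 0.42) and 82 below 0 in SKOV3 cells (median -0.22), but with quantile normalization these medians shrank to 0.07 and -0.01, and with normexp the latter was 0.004. The nuclear genes for subunits of the respiratory chain and ATP synthase, 82 of 85 of which were tested, had medians of 0.09 and -0.24, with 78 below 0 in SKOV3 cells, and of -0.11 and -0.10 with quantile normalization, where 63 were below 0 in SKOV3 cells. No gene of either list was called in a single line, where 2.03% of all genes were in MDAH and 0.997% in SKOV3 cells. At an unadjusted p under 0.05, 39 cytosolic ribosomal proteins were higher and 0 lower in MDAH cells, and of the respiratory genes 1 was higher and 3 lower, where 13.1% of all genes were higher and 9.98% lower. In SKOV3 cells, 0 cytosolic ribosomal proteins were higher and 5 lower, and of the respiratory genes 1 was higher and 8 lower, where 9.89% of all genes were higher and 9.62% lower. UQCRH, of which a near-identical gene copy is known so that its probe is uncertain, was called in the average (1.50, limma adjusted p = 0.0498). It was the only gene of either list called there, where 5.66% of all genes were. Its change was 0.33 in MDAH and 2.67 in SKOV3 cells. That call was lost with quantile normalization and the deposited values (0.0677 each), with no filter on dim probes (0.0818), and when any control array or either silenced MDAH array was left out (0.0561 to 0.183). The difference between these lists and the mitochondrial ribosomal proteins was not tested. POLRMT, the mitochondrial RNA polymerase, changed by 0.44 and 0.47, and TFAM by -0.01 and -0.07, without passing.

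The control cells of the 2 lines differed far more than silenced and control cells did. Of the 77 genes, 33 were called, 8 higher in MDAH controls, where 26.8% of all genes were, and 25 lower, where 30.7% of all genes were. The 6 lowest were MRPS6 (-1.63 ± 0.18), MRPL12 (-1.51 ± 0.18), MRPS7 (-1.44 ± 0.17), MRPL1 (-1.41 ± 0.14), MRPL54 (-1.18 ± 0.18) and MRPS23 (-1.15 ± 0.19), with adjusted p-values from 0.000204 to 0.00222. The 6 highest were MRPL2 (1.50 ± 0.20), MRPS30 (0.96 ± 0.17), MRPS9 (0.92 ± 0.14), MRPL44 (0.84 ± 0.14), MRPS25 (0.77 ± 0.23) and MRPS10 (0.66 ± 0.14), with adjusted p-values from 0.000849 to 0.0241. MRPS6 was thus 3.10-fold lower and MRPL2, which lies by the peptidyl transferase centre, 2.82-fold higher in MDAH than in SKOV3 controls. MRPL1 and MRPS6, the genes that were lower with silencing in the average, were also among those with the least signal in MDAH controls relative to SKOV3 controls, and both comparisons use the same control arrays.

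**Figure D5:**
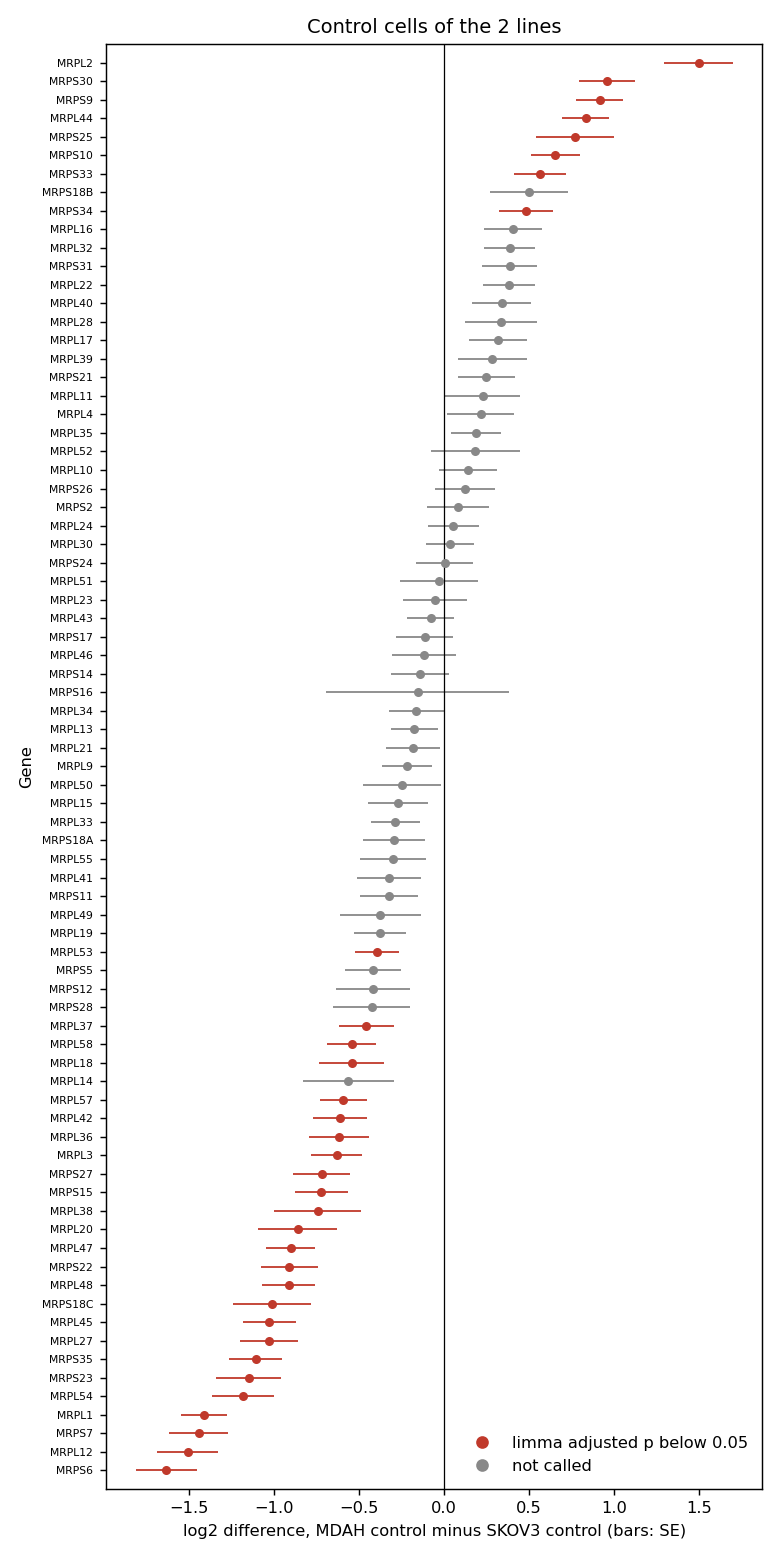
Log2 difference between MDAH and SKOV3 control cells for each of the 77 genes, ordered by size, with horizontal bars of ± 1 SE and red for a limma adjusted p below 0.05. The values run from -1.63 (MRPS6) to 1.50 (MRPL2), and 33 genes are red, 25 of them below 0.

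The split of these calls between directions depended on the scaling. In MDAH controls 17 were higher and 18 lower with quantile normalization and equally with the deposited log2 values, where 28.5% and 28.6% of all genes were. The numbers were 18 and 22 with normexp (28.9% and 29.8% of all genes), and 6 and 26 with array median centring (22.7% and 34.6% of all genes). The median of the set was -0.22 in the main scaling, with 49 of 77 genes lower in MDAH controls, and -0.03 with quantile normalization. In the main scaling, 17 of the 51 large and 8 of the 26 small subunit genes were called lower, where 30.7% of all genes were. Called higher were 3 and 5 of them, where 26.8% of all genes were.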

How the data were processed

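Per the labels and the paper's methods, the authors hybridized Cy3-labelled RNA to 8 Agilent arrays on 1 slide. The deposited scanner files hold the intensity of each spot after background subtraction and removal of spatial trends by Agilent Feature Extraction (version 11.5.1.1 per the file headers, 10.7.3.1 per the submitters' processing notes), without normalization between arrays. A table of log2 values was deposited too. Set against the scanner values (r rounds to 1 on each array), it holds quantile-normalized log2 signals minus each probe's median, and its column medians lie near 0, so that it gives no levels.

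After removal of control spots and outlier spots (209 to 310 per array), repeated spots were averaged as log2 and each array was scaled by subtracting its own 75th percentile. Of 50599 probes, 28174 were named through RefSeq accessions without version in a table of GRCh38.p14, whose coordinates were not joined to the arrays. The brightest probe stood for a gene, and only for the mitochondrial ribosomal proteins did it have to carry an NM_ accession, as 25219 named probes did. Any other gene could be represented by a probe with any RefSeq accession, so all genes were chosen by a wider rule than the set. A gene was tested if 1 group had both arrays well above background. limma 3.58.1 in R 4.3.3 was fitted to the 4 groups together, with 4 residual and 2.69 prior degrees of freedom, Benjamini-Hochberg adjustment over all genes and a threshold of 0.05; its adjusted p-values are those printed. All 8 arrays being on 1 slide from 1 scan, no batch term was possible. The number of arrays limits the precision. The fit was tested on simulated data with the spreads of the genes tested, where 200 of 15547 genes were changed in both lines. At changes of 0.5 and 1 on the log2 scale, 0% of them were recovered in either line alone. At 2, 74.5% were recovered in MDAH and 73% in SKOV3 cells. In the average 0%, 57.5% and 88.5% were recovered at 0.5, 1 and 2. The data differ from this setting, since 3591 genes in MDAH and 3033 in SKOV3 cells had a limma unadjusted p under 0.05. The adjusted threshold depends on that number, so these shares do not give the recovery in the data. There MRPL1 was called in SKOV3 cells at -0.86. With 2 arrays per group, a gene not called is still not shown to be unchanged.

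The members and the lists were chosen with earlier results of these data known, and the lists of mitochondrial translation genes were written from general knowledge. Named were the genes called in any silencing comparison, the 4 highest and 4 lowest changes in each comparison (6 among those called between the control lines), the MRPS18 paralogs, genes whose probes disagreed in sign past 0.3, and up to 3 called genes of the other lists. MRPL27, MRPL53 and MRPL30's single arrays were chosen after their values were seen. Alternatives were other scalings, normexp (offset 50, on median pixel intensities), filters, the mean of all probes, a replicate block, the arrays compared alone and leaving out each array. Promoters are RefSeq sequences.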

Additional observations from a re-analysis of the deposited data

Results flagged for a closer look

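The changes of the 77 genes with silencing differed between the lines by a median of 0.32 on the log2 scale, MDAH minus SKOV3. This was noted because the silenced arrays of the lines moved in opposite directions against the mean of their line's controls. The median was 0.05 with sh-SFPQ#2 and 0.12 with sh-SFPQ#3 in MDAH cells, and -0.15 and -0.28 in SKOV3 cells. In single pairs of a silenced with a control array, however, the MDAH median took either sign, from -0.034 to 0.21. Relative to all genes it ran from -0.088 to 0.082 in these pairs, and from -0.27 to -0.080 in those of SKOV3 cells. The median difference between the lines was not tested, and it was 0.12 over all genes tested. Over the 77 genes it fell to 0.09 with quantile normalization, where the MDAH median was itself below 0.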

How the results depend on the processing

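With 2 arrays per group, the calls rested on single arrays, and the scaling set where the medians lay relative to 0. In MDAH cells the median change was -0.031 with quantile normalization, -0.031 with the deposited values and -0.034 with normexp, and 0.19 with array median centring. One gene was then called with normexp (MRPS6), and leaving out 1 array gave 0 to 1 calls (MRPL42 without sh-SFPQ#2). In SKOV3 cells 0 genes were called with quantile normalization, array median centring, the deposited values, no filter on dim probes or the 4 arrays compared alone, and 0 when any array was left out. In the average, leaving out 1 array gave 0 to 3 calls. The median difference between the lines was 0.092 with quantile normalization, 0.090 with the deposited values, 0.12 with normexp and 0.47 with array median centring. Between the control lines the median was -0.030, -0.028, -0.038 and -0.37 under these scalings in the same order, and leaving out 1 array gave 18 to 31 calls and a median from -0.28 to -0.085, both extremes of fewest calls and highest median being without MDAH control 1; 20 were called without SKOV3 control 1. Other counts and medians (121 values) moved by less than the 0.11 SD of array medians or less than 1.5 times. The cause was not tested.

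With a replicate block (control number and shRNA number shared by the lines), 4 genes were called in the average, MRPL1, MRPS6, MRPS16 and MRPS28, and 1 in MDAH cells, MRPS6. The share of all genes called in that fit is not given, so these counts do not set the 77 genes against all genes. In the other comparisons the block kept the count within 1.5 times. The numbers do not mark pairs of samples. Deviations from the group means correlated between the lines at 0.078 over all genes for the controls and at 0.36 for the silenced arrays, which share an shRNA. Over the 77 genes these correlations were 0.17 and 0.56, so the silenced arrays of the lines were not independent of each other.

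Some changes, none of them called and most of them near 0 (not those of MRPS16, at -0.59 and -0.53, and MRPL43, at -0.22 in SKOV3 cells), took the other sign in some fits. With quantile normalization, the deposited values and normexp, in this order, MRPS18A was at -0.018, -0.018 and -0.012 in MDAH cells and MRPS18B at 0.043, 0.047 and 0.038 in SKOV3 cells. Array median centring put MRPS18C at 0.093 in MDAH cells, and the differences between the lines of MRPS18B and MRPS31 at 0.028 and 0.034. The mean of all probes put MRPS18B at 0.0062 and MRPL43 at 0.29 in SKOV3 cells. Leaving out 1 array gave ranges, in MDAH cells, of -1.22 to 0.040 for MRPS16, -0.035 to 0.23 for MRPS18A, -0.44 to 0.091 for MRPS18B and -0.24 to 0.20 for MRPS18C. In SKOV3 cells they were -0.12 to 0.29 for MRPS25, -0.083 to 0.25 for MRPL10, -0.27 to 0.074 for MRPS18A, -0.21 to 0.10 for MRPS18B and -1.23 to 0.17 for MRPS16, and for the difference between the lines -0.36 to 0.048 for MRPS25, -0.39 to 0.15 for MRPS18B and -0.23 to 0.0075 for MRPS31.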
